A study of Mus musculus with 9 samples.

Results

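The 10 immediate early genes Fos, Fosb, Fosl1, Junb, Egr1, Arc, Npas4, Nr4a1, Ier2 and Dusp1 were followed in the spinal cord of 9 mice. They were taken as a named list and matched by symbol to the Ensembl identifiers of the count table, in which all 10 were found among 52550 genes. All 10 also passed the filter on low counts that left 18699 genes for testing. The mice were adult female C57BL/6N, and each group held 3 of them. The Sham group had a laminectomy and no contusion. The SCI group had a contusion of the thoracic cord and intraperitoneal DMSO. The SCI+FIPI group had the same contusion and daily intraperitoneal FIPI, which was dissolved in DMSO and diluted in saline. FIPI is 5-fluoro-2-indolyl des-chlorohalopemide, an inhibitor of phospholipase D. A vehicle injection is not described for the Sham group, so contusion and DMSO cannot be told apart in the comparison of SCI with Sham. On day 7 all mice were anesthetized with pentobarbital, and a piece of cord around the epicenter was frozen for sequencing of polyadenylated RNA. The time from anesthesia to freezing is not given for single mice in the sources used here.

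Immediate early genes are switched on within minutes of a stimulus by transcription factors that are already present in the cell, so that no new protein has to be made first. Calcium entry, growth factors, cytokines and stress reach them through MAP kinases and calcium-dependent kinases, which act on serum response factor with its ternary complex partners and on CREB. Many of the products are themselves transcription factors, others are phosphatases or adaptor proteins that end or shape the response, and most of the mRNAs decay quickly. In the nervous system Fos, Arc and Npas4 are used as marks of recent neuronal activity, while Fos, Junb, Egr1, Ier2 and Dusp1 are also induced in glia, vessels and leukocytes.

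Promoter sequence was available for 6 of the 10 genes, as the 250 bases before a start of the gene in RefSeq on GRCm38.p6. These 6 were Fos, Fosb, Junb, Npas4, Nr4a1 and Dusp1. Both strands were searched for TGACG, the core of the cyclic AMP response element that CREB binds, for its full palindrome TGACGTCA, which contains TGACG on each strand, for TATAAA, for the AP-1 motif TGANTCA, for the EGR motif GCGGGGGCG and for the CArG box of serum response factor. Of these windows 4 are shown, since Fos and Junb were higher and Npas4 lower in SCI mice than in Sham mice, and the window of Dusp1 holds the palindrome. Each runs 5′ to 3′ on the strand of the gene, and capitals mark matches of TGACG, TGACGTCA and TATAAA on either strand. Bases just after the window were found in the annotated transcripts of the gene for Fos, Npas4 and Dusp1. For Junb they were found in neither orientation, so its strand and start rest on RefSeq alone. The window of Fos lies at chr12:85473640-85473889 on the plus strand. The other windows lie on the minus strand at chr8:84978749-84978998 for Junb, chr19:4989972-4990221 for Npas4 and chr17:26508473-26508722 for Dusp1. The gene positions printed further below are GENCODE spans over all transcripts of a gene, and their starts can differ from those of RefSeq. The windows of Npas4, Nr4a1 and Dusp1 lie inside these spans.
Fos: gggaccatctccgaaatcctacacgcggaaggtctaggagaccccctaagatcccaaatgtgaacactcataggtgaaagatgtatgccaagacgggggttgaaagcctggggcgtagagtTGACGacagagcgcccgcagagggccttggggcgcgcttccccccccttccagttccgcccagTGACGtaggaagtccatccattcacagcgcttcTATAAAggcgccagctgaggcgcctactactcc
Junb: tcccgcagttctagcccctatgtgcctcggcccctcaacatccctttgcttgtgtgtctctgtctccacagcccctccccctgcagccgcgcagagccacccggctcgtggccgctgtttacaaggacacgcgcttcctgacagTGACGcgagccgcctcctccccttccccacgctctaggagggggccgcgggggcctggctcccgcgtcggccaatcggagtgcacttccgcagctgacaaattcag
Npas4: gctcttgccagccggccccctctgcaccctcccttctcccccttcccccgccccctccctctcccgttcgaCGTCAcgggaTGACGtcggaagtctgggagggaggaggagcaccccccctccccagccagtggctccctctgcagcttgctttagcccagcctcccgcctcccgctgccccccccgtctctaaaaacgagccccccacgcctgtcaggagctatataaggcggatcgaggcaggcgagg
Dusp1: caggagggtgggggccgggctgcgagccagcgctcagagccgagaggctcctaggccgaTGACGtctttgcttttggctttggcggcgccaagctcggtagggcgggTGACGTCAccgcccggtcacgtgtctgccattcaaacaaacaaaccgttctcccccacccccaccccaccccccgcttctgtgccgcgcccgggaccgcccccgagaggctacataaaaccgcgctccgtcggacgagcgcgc

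The TGACG core was found in 6 of the 6 windows, against 17.8% of 32851 mouse promoters of the same length. It occurred 4 times in Nr4a1, 3 times in Dusp1, 2 times each in Fos and Npas4, and 1 time each in Fosb and Junb. The palindrome TGACGTCA was present only in Dusp1 among the 6, and 1.55% of all promoters held it. The EGR motif occurred in Fosb and Nr4a1, against 2.57% of all promoters, and TATAAA occurred in Fos, against 12.4%. No CArG box (1.47% of all promoters) and no TGANTCA (6.75%) lay in these windows. Sequence farther upstream was not searched, so a site there would be missed. Fos and Junb, which were higher in SCI mice than in Sham mice, and Npas4, which was lower, all held the TGACG core. Such a match is a run of letters and no measurement of binding.

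Total counts lay between 20806000 and 24582377 per mouse, and the scaling factors between mice (TMM factors of edgeR) between 0.985 and 1.02. Levels are given as CPM, in which each count is scaled to the same library size in every mouse. Calls were made with the quasi-likelihood test of edgeR, with Benjamini-Hochberg adjustment over all genes tested, and needed both an adjusted p under 0.05 and a log2 fold change past 0.5 in either direction. SCI and Sham differed widely at these limits, with 24.4% of all genes called higher and 22.5% called lower in the SCI group. Between SCI+FIPI and SCI 3.06% of all genes were called in either direction. The tissue label fitted its markers, since the summed level of 10 neuron markers lay between 1410 and 5154 CPM and that of 6 oligodendrocyte markers between 22750 and 33982 CPM over the 9 mice, with no marker of either list at 0. The first principal component held 77.3% of the variance and placed Sham on one side and both injured groups on the other. On the second, with 4.58% of the variance, 1 mouse of each group lay apart from the other 2. SCI mouse 1 was at 1.91 against 20.2 and 18.4, Sham mouse 2 at -11.3 against 9.52 and 9.997, and SCI+FIPI mouse 1 at -2.65 against -22.3 and -23.8.

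Of the 10 genes, Fos, Junb, Egr1 and Ier2 were called higher and Arc and Npas4 were called lower in SCI mice than in Sham mice. Fosb, Fosl1, Nr4a1 and Dusp1 did not pass the test. The 4 of 10 called higher stand beside 24.4% of all genes, and the 2 of 10 called lower beside 22.5%. In 7 of the 10 genes every SCI mouse lay on the same side of every Sham mouse, which held for 70.5% of all genes. The median log2 fold change was 1.09 over the 10 genes and -0.003 over all genes. The RNA came from whole tissue, in which fewer cells of a type and less RNA per cell cannot be told apart. The plot of levels by mouse gives every value.

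**Figure D1:**
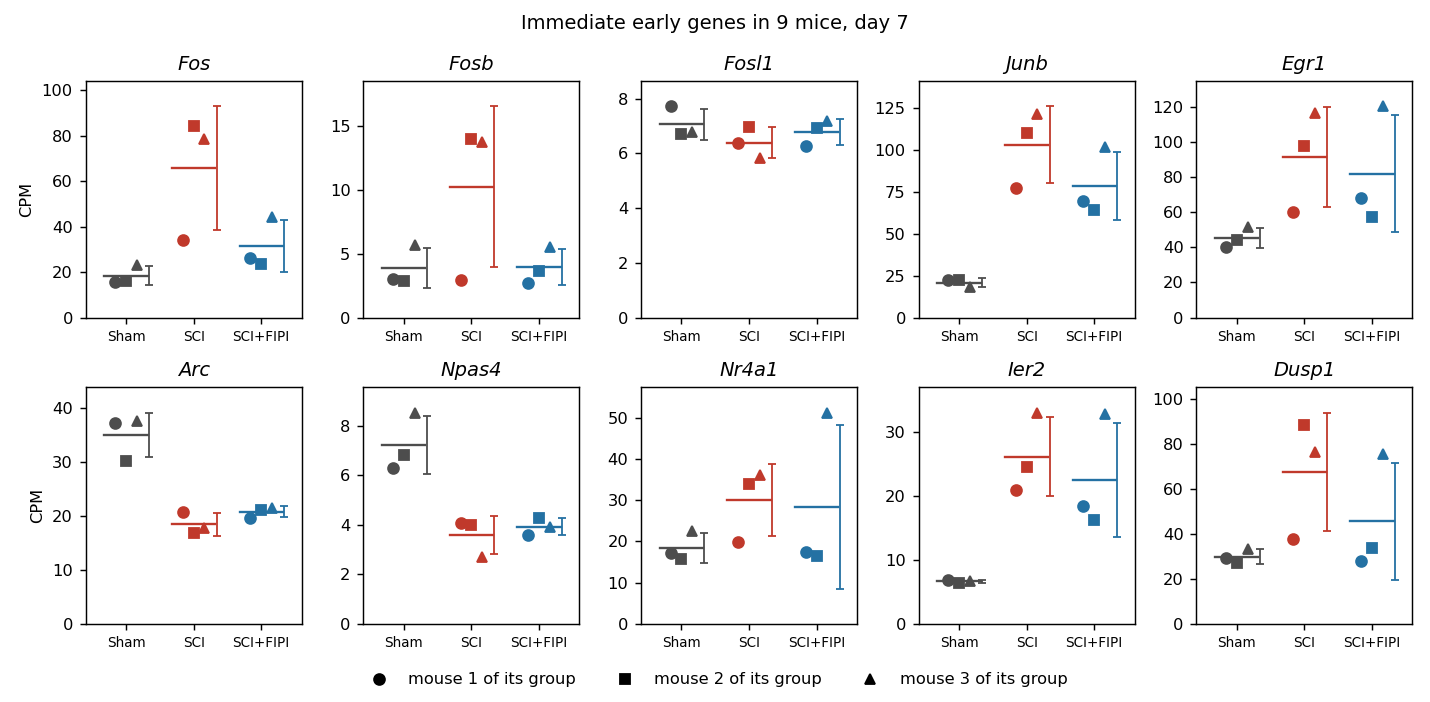
CPM of the 10 immediate early genes in each of the 9 mice, by group, with the vertical axis starting at 0 in each panel. Horizontal lines are group means and bars are SD (n = 3). Junb and Ier2 lay above the Sham range in all 6 injured mice, Arc and Npas4 lay below it in all 6, and SCI mouse 1 was the lowest SCI mouse for 7 of the genes.

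Fos, Fosb, Fosl1 and Junb encode subunits of AP-1, the dimeric leucine zipper factor in which FOS proteins pair with JUN proteins. Fos (ENSMUSG00000021250) spans chr12:85473890-85477273 on the plus strand. Its level was 15.8, 16.1 and 23.4 CPM in Sham mice 1 to 3, 34.3, 84.1 and 78.6 CPM in SCI mice and 26.3, 23.4 and 44.5 CPM in SCI+FIPI mice. All SCI mice were above all Sham mice, and SCI mouse 1 fell within the range of the SCI+FIPI group. The means were 18.4 ± 4.29, 65.7 ± 27.3 and 31.4 ± 11.4 CPM (SD, n = 3). Fos rose 3.56-fold in the SCI group over the Sham group (log2 fold change 1.83, SE 0.435, edgeR adjusted p = 0.00907). Without SCI mouse 2 the log2 value was 1.62, and without SCI mouse 1 it was 2.14.

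Fosb (ENSMUSG00000003545; chr7:19302696-19310051, minus strand), a close paralog of Fos that also gives a truncated product in neurons, was the lowest of the 10 in the Sham group per kilobase of exon. It measured 3.02, 2.89 and 5.68 CPM in Sham mice, 2.98, 14.0 and 13.8 CPM in SCI mice and 2.73, 3.69 and 5.49 CPM in SCI+FIPI mice. SCI mice 2 and 3 were above all other mice, and SCI mouse 1 was inside the Sham range. The log2 fold change of 1.40 between SCI and Sham had an SE of 0.623 and did not pass the test (edgeR adjusted p = 0.0885). Without SCI mouse 1 it was 1.84 with an adjusted p of 0.0011.

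Fosl1 (ENSMUSG00000024912; chr19:5447547-5455946, plus strand) encodes FRA-1, an AP-1 subunit that lacks the transactivation domain of Fos. Its means were 7.06 ± 0.57, 6.38 ± 0.56 and 6.78 ± 0.47 CPM in the Sham, SCI and SCI+FIPI groups (SD, n = 3), and the 3 groups overlapped. The log2 fold change between SCI and Sham was -0.14, with a 95% interval from -0.42 to 0.13. It depended on the processing and was -0.40 with offsets for GC content and length and the replicate block, short of the limit of 0.5. Of its 2033 exonic bases 1163 are also exonic in Ccdc85b on the opposite strand. The means of Ccdc85b were 70.0 ± 5.35, 46.5 ± 5.15 and 58.0 ± 4.999 CPM in the same order. Whether counting used the strand is not given in the sources used here, and the share of the Fosl1 counts that may come from Ccdc85b was not tested.

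Junb (ENSMUSG00000052837; chr8:84974484-84978718, minus strand), a JUN subunit that is induced by cytokines as well as by growth factors, showed the largest log2 fold change of the 10 genes. It measured 22.3, 22.4 and 17.97 CPM in Sham mice, 77.3, 110.0 and 121.4 CPM in SCI mice and 69.4, 63.9 and 101.8 CPM in SCI+FIPI mice. All injured mice, treated or not, were above all Sham mice, and the 2 injured groups overlapped. Junb rose 4.93-fold in the SCI group (log2 fold change 2.30, SE 0.253, edgeR adjusted p = 0.000138) and 3.76-fold in the SCI+FIPI group (1.91, SE 0.253, adjusted p = 0.000488), each against the Sham group. Of its 2301 exonic bases 173 are also exonic in Prdx2 on the opposite strand, whose means were 101.8 ± 2.33, 127.0 ± 2.06 and 123.8 ± 4.35 CPM in the Sham, SCI and SCI+FIPI groups. The part of Prdx2 in the Junb counts was not tested.

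Egr1, Nr4a1 and Npas4 encode transcription factors of other families. Egr1 (ENSMUSG00000038418; chr18:34859823-34864984, plus strand) is a zinc finger protein induced by growth factors, cytokines and synaptic input. It measured 40.4, 44.4 and 51.7 CPM in Sham mice, 60.3, 97.6 and 116.4 CPM in SCI mice and 68.3, 57.5 and 120.2 CPM in SCI+FIPI mice. Both injured groups lay above the Sham range and overlapped each other almost entirely. Egr1 rose 2.01-fold in the SCI group over the Sham group (log2 fold change 1.01, SE 0.360, edgeR adjusted p = 0.0455), close to the limit of 0.05. The call was lost in 6 of the 9 fits that left out 1 mouse, with an adjusted p of 0.0626 when SCI+FIPI mouse 1 was left out and of 0.136 when SCI mouse 3 was. The others were those without Sham mouse 1 (0.121), Sham mouse 2 (0.107), Sham mouse 3 (0.0801) and SCI mouse 2 (0.106).

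Nr4a1 (ENSMUSG00000023034; chr15:101254269-101274795, plus strand) encodes the orphan nuclear receptor NUR77, which is induced in neurons and in stimulated macrophages and lymphocytes. It measured 17.1, 15.7 and 22.6 CPM in Sham mice, 19.9, 33.9 and 36.1 CPM in SCI mice and 17.3, 16.5 and 51.3 CPM in SCI+FIPI mice. The highest of the 9 values belonged to SCI+FIPI mouse 3, while the other 2 mice of that group were inside the Sham range. The log2 fold change between SCI and Sham was 0.70 (SE 0.515, edgeR adjusted p = 0.276). Without SCI+FIPI mouse 3, which belongs to neither group but enters the shared estimate of the spread, it was 0.70 with an SE of 0.244 and an adjusted p of 0.0395.

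Npas4 (ENSMUSG00000045903; chr19:4984355-4990316, minus strand), a neuronal factor of the basic helix-loop-helix PAS family, and Arc (ENSMUSG00000022602; chr15:74669083-74672570, minus strand), a capsid-like protein of the postsynaptic compartment, are induced in neurons by calcium entry. Npas4 measured 6.28, 6.82 and 8.52 CPM in Sham mice, 4.07, 3.97 and 2.70 CPM in SCI mice and 3.58, 4.28 and 3.90 CPM in SCI+FIPI mice. Arc measured 37.1, 30.1 and 37.6 CPM in Sham mice, 20.8, 16.7 and 17.7 CPM in SCI mice and 19.5, 21.1 and 21.5 CPM in SCI+FIPI mice. Both genes were lower in every injured mouse than in any Sham mouse, with or without FIPI. Npas4 was 2.01-fold lower in SCI mice than in Sham mice (log2 fold change -1.01, SE 0.183, edgeR adjusted p = 0.000188). Arc was 1.90-fold lower (log2 fold change -0.92, SE 0.103, adjusted p = 1.47e-06). These calls stood in each of the 9 fits that left out 1 mouse.

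The neuron markers moved with Arc and Npas4. Each of the 10 neuron markers was called lower in SCI mice than in Sham mice, with a median log2 fold change of -1.74. Their summed level was 4716 to 5154 CPM in Sham mice, 1410 to 1905 CPM in SCI mice and 2273 to 2643 CPM in SCI+FIPI mice, with no marker at 0. Per 1000 CPM of neuron markers, Arc stood at 6.96 ± 0.493 CPM in the Sham group, 11.1 ± 1.42 CPM in SCI mice and 8.59 ± 0.765 CPM in SCI+FIPI mice (SD, n = 3). The lowest SCI mouse (9.74) was above the highest Sham mouse (7.29) on this ratio. The same ratio for Npas4 was 1.44 ± 0.218, 2.12 ± 0.200 and 1.62 ± 0.0925 CPM. The ratio depends on the markers summed. The neuron markers Tubb3 and Stmn2 fell less than the others, by 0.68 and 0.99 on the log2 scale, beside -0.92 for Arc and -1.01 for Npas4, so that Arc and Npas4 were lower in SCI mice than in Sham mice relative to Tubb3 and nearly level relative to Stmn2. The ratio and these 2 markers were chosen after the values were seen, no test was made of the ratio, and the part of neuron number in the change of Arc and Npas4 was not tested.

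Ier2 (ENSMUSG00000053560; chr8:84661331-84662852, minus strand) encodes a small nuclear protein and has its exons in a single block. It measured 6.85, 6.31 and 6.73 CPM in Sham mice, 20.9, 24.6 and 33.1 CPM in SCI mice and 18.4, 16.3 and 32.8 CPM in SCI+FIPI mice. The Sham mice differed by no more than 1.09-fold, and every injured mouse was above them. Ier2 rose 3.95-fold in the SCI group (log2 fold change 1.98, SE 0.311, edgeR adjusted p = 0.000768) and 3.40-fold in the SCI+FIPI group (1.76, SE 0.312, adjusted p = 0.0018) over the Sham group.

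Dusp1 (ENSMUSG00000024190; chr17:26505590-26562128, minus strand) encodes MKP-1, a nuclear phosphatase that switches off MAP kinases and is induced by the same kinases and by glucocorticoids. It measured 29.2, 27.0 and 33.4 CPM in Sham mice, 37.95, 88.7 and 76.4 CPM in SCI mice and 27.9, 33.6 and 75.6 CPM in SCI+FIPI mice. Every SCI mouse was above every Sham mouse, SCI mouse 1 by little, and SCI+FIPI mouse 3 was close to SCI mouse 3. The log2 fold change of 1.18 between SCI and Sham had an SE of 0.479 and did not pass the test (edgeR adjusted p = 0.0694). It passed without SCI mouse 1 (1.46, adjusted p = 0.0342) and without SCI+FIPI mouse 3 (1.18, adjusted p = 0.0236).

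**Figure D2:**
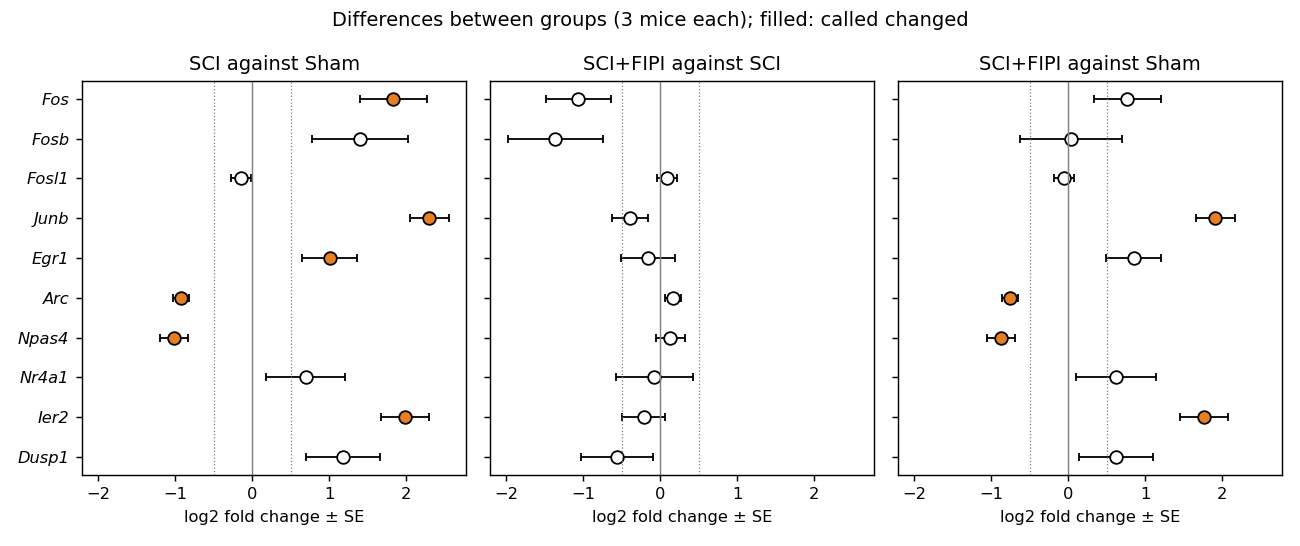
Log2 fold changes of the 10 immediate early genes in the 3 comparisons, with bars of 1 SE on each side from edgeR's fit to all 9 mice. Filled points were called changed and dotted lines mark a log2 fold change of 0.5 in either direction. The panel for SCI+FIPI against SCI holds no filled point, and its values run from -1.36 for Fosb to 0.17 for Arc.

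The comparison of SCI+FIPI with SCI addresses the effect of the inhibitor on injured cord. None of the 10 genes was called changed by edgeR, and DESeq2 and limma-voom also called 0 of 10, beside 3.06% of all genes called by edgeR. At an unadjusted p under 0.05 there was 1 gene, Fos. In 0 of the 10 genes were the mice of one group all on the same side of those of the other, which held for 30.2% of all genes. The median log2 fold change was -0.19 over the 10 genes and -0.001 over all genes, and 7 of the 10 values were below 0.

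Fosb and Fos had the largest differences in this comparison. The log2 fold change of Fos was -1.06 (SE 0.417, unadjusted p = 0.0417, edgeR adjusted p = 0.179), with a 95% interval from -2.07 to -0.05. That of Fosb was -1.36 (SE 0.620, adjusted p = 0.235), with an interval from -2.85 to 0.12. For both genes SCI mice 2 and 3 stood above all SCI+FIPI mice, and SCI mouse 1 lay within the range of the SCI+FIPI group. Dusp1 came next with -0.57 (interval -1.70 to 0.56), then Junb with -0.39 (interval -0.95 to 0.16), Ier2 with -0.22 (interval -0.88 to 0.44) and Egr1 with -0.16 (interval -1.004 to 0.69). Nr4a1 stood at -0.08 with an interval from -1.29 to 1.14. Apart from that of Fos, these intervals included 0, and each reached past 0.5 in at least 1 direction.

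Arc, Npas4 and Fosl1 had narrower intervals. The log2 fold change of Arc between SCI+FIPI and SCI was 0.17 (interval -0.05 to 0.39), that of Npas4 was 0.13 (interval -0.27 to 0.54) and that of Fosl1 was 0.09 (interval -0.19 to 0.37). For Arc and Fosl1 the interval stayed inside a log2 change of 0.5. Over the same mice 7 of the 10 neuron markers were called higher in SCI+FIPI mice than in SCI mice, beside 2.36% of all genes. The median log2 fold change of the 10 markers was 0.58.

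Single mice decided how far Fos and Fosb differed between the injured groups. Without SCI mouse 1, 2 of the 10 genes were called, Fos at -1.37 (SE 0.311, edgeR adjusted p = 0.0444) and Fosb at -1.80 (SE 0.324, adjusted p = 0.00917), beside 5.44% of all genes. In the other 8 fits that left out 1 mouse, 0 of the 10 were called. Without SCI+FIPI mouse 3 the log2 fold change was -1.40 for Fos, -1.14 for Dusp1, -0.82 for Nr4a1, -0.63 for Junb, -0.60 for Ier2 and -0.54 for Egr1, and none was called. Egr1 and Nr4a1 changed sign when other mice were left out, with values from -0.54 to 0.05 and from -0.82 to 0.20 over the 9 fits. SCI mouse 1 had the highest summed neuron markers of its group (1905 CPM, against 1715 and 1410) and the lowest summed fibroblast and pericyte markers (6748 CPM, against 9393 and 8561). SCI+FIPI mouse 3 had the highest sum of bone markers, 33.4 CPM against 9.06 to 21.5 CPM in the other 8 mice. The 21.5 CPM belonged to SCI+FIPI mouse 2, the lowest of its group for Fos, Junb, Egr1, Nr4a1 and Ier2. These sums were picked from a longer set of marker lists. The part of these cell types in the levels of the 10 genes was not tested.

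**Figure D3:**
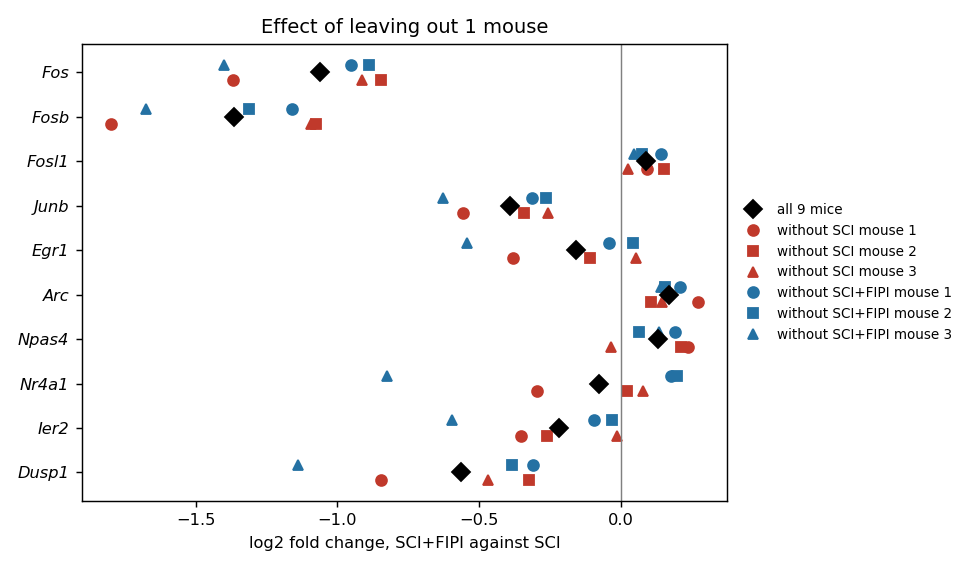
Log2 fold change between SCI+FIPI and SCI for each immediate early gene with all 9 mice (black) and with 1 injured mouse left out (colored by group, shaped by mouse). Leaving out SCI+FIPI mouse 3 moved Nr4a1 from -0.08 to -0.82 and Dusp1 from -0.57 to -1.14, and leaving out SCI mouse 1 moved Fosb from -1.36 to -1.80.

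Against the Sham group, the SCI+FIPI group shared its direction with the SCI group for each of the called genes, and both comparisons use the same Sham mice. Junb and Ier2 were called higher and Arc and Npas4 lower. These 2 of 10 higher and 2 of 10 lower stand beside 21.2% and 17% of all genes. Arc had a log2 fold change of -0.75 (SE 0.102, edgeR adjusted p = 1.61e-05) and Npas4 one of -0.88 (SE 0.182, adjusted p = 0.000734). In 6 of 10 genes the SCI+FIPI and Sham mice did not overlap, against 66.3% of all genes. Fos (0.77, SE 0.440, adjusted p = 0.181) and Egr1 (0.85, SE 0.360, adjusted p = 0.0856) were among these 6 and did not pass the test. For Fos the separation was narrow, with the lowest SCI+FIPI mouse at 23.44 CPM and the highest Sham mouse at 23.36 CPM. Egr1 passed with DESeq2, with an adjusted p of 0.0345. Fosb stood at 0.04, with a 95% interval from -1.54 to 1.61. The difference between SCI+FIPI and Sham for Nr4a1 was 0.62 with all mice and -0.12 without SCI+FIPI mouse 3.

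Most of the immediate early genes varied more between mice of a group than the median gene. Over 14553 genes whose mean log2 CPM reached 1, the median ratio of the highest to the lowest mouse of a group was 1.14 in the Sham, 1.15 in the SCI and 1.13 in the SCI+FIPI group. This ratio reached 4.69 for Fosb, 2.45 for Fos and 2.34 for Dusp1 in the SCI group, and 3.10 for Nr4a1, 2.71 for Dusp1, 2.09 for Egr1 and 2.02 each for Ier2 and Fosb in the SCI+FIPI group. Only 1.40% of genes in the SCI group and 1.01% in the SCI+FIPI group reached a ratio of 2. Arc (1.24, 1.10) and Fosl1 (1.19, 1.15) were steady in the same 2 groups. No test was made of this spread.

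The variation ran in the same direction for most of the genes. SCI mouse 1 was the lowest of its group for Fos, Fosb, Junb, Egr1, Nr4a1, Ier2 and Dusp1, and it was the highest for Arc and Npas4. SCI+FIPI mouse 3 was the highest of its group for 9 of the 10 genes, Npas4 being the exception. Over all 18699 genes SCI mouse 1 was the lowest for 34.9% and SCI+FIPI mouse 3 the highest for 31.9%. Among 31 other primary response genes SCI mouse 1 was the lowest for 22 and SCI+FIPI mouse 3 the highest for 22. Sham mouse 3 was the highest of its group for 7 of the 10 genes and for 9 of 10 activity-regulated neuronal genes, against 35.3% of all genes. Among the 31 other primary response genes it was the highest for 10 and the lowest for 15. In the list of activity-regulated neuronal genes SCI mouse 1 was the lowest for 2 and SCI+FIPI mouse 3 the highest for 2. Genes that respond to one stimulus are not independent of each other and no test was made of these counts.

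**Figure D4:**
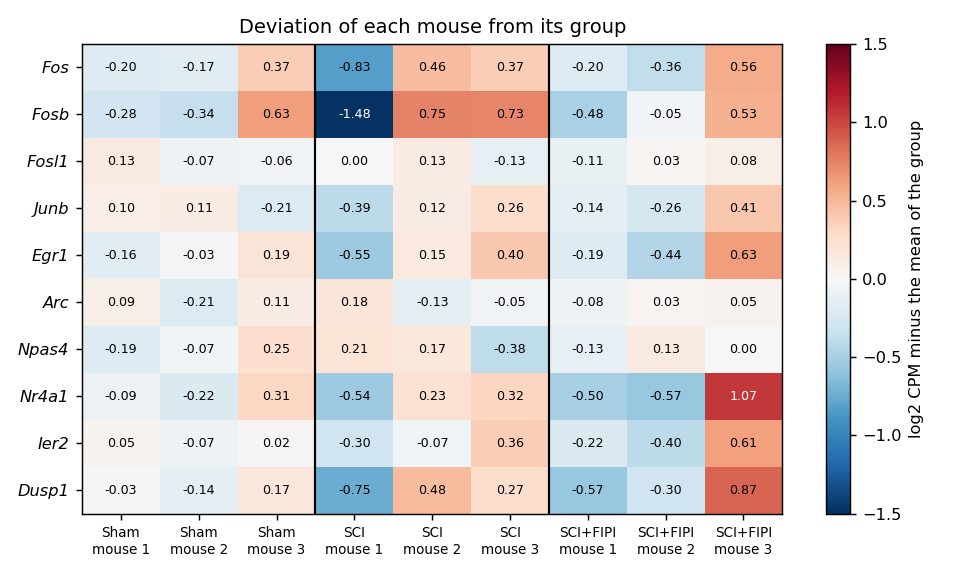
Deviation of each mouse from the mean of its group in log2 CPM, with genes in rows and the 9 mice in columns. SCI mouse 1 was below its group for 7 of the genes and SCI+FIPI mouse 3 above its group for 9 of them, Nr4a1 by 1.07.

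Across the 9 mice the genes fell into a few patterns, given as Pearson correlations of log2 CPM without a test, since group differences are part of them. Junb and Ier2 correlated at 0.984, Fos and Dusp1 at 0.932, Nr4a1 and Dusp1 at 0.923 and Arc and Npas4 at 0.915. Junb and Arc correlated at -0.958. Fosl1 had no correlation above 0.542 with any of the others. The other genes whose mean log2 CPM reached 1 numbered 14543. Among them, those most like Fos over the 9 mice were Gimap8 (r = 0.971), Safb2 (r = 0.967) and Gbx2 (r = 0.964). Those most like Arc were Ermp1, Rhobtb2 and Ankrd29, each at r = 0.995.

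Levels between genes were compared as CPM per kilobase of exon. The length was that of all annotated exons of a gene merged, such as 3311 bases for Dusp1, 2301 for Junb and 3057 for Arc. It can exceed the length of any single transcript. Other lengths were not tried, and the order of genes at similar levels, including the first place of Arc, depends on this choice. In the Sham group Arc was first at 11.4 ± 1.36, followed by Egr1 at 10.1 ± 1.27, Junb at 9.08 ± 1.10, Dusp1 at 9.02 ± 0.989 and Fos at 7.83 ± 1.82, and neighbours among these 5 differed by no more than the larger SD. Nr4a1 (5.27 ± 1.04) and Ier2 (4.35 ± 0.188) also lay within the SD of Nr4a1, and Fosl1 (3.47), Npas4 (1.74) and Fosb (0.62) followed. In the SCI group Junb led at 44.7 ± 9.96, with Fos at 27.9 ± 11.6, and Dusp1 at 20.4 ± 7.997, Egr1 at 20.4 ± 6.36 and Ier2 at 17.2 ± 4.10 lay within 1 SD of each other. Arc had moved to the seventh place at 6.02 ± 0.690, and Npas4 was last at 0.87. In the SCI+FIPI group the order was Junb at 34.05 ± 8.89, Egr1 at 18.3 ± 7.47, Ier2 at 14.8 ± 5.90, Dusp1 at 13.8 ± 7.87 and Fos at 13.4 ± 4.84, and from Egr1 to Fos neighbours again differed by less than their SD. Nr4a1 (8.09 ± 5.65), Arc (6.77 ± 0.335), Fosl1 (3.33), Npas4 (0.95) and Fosb (0.64) followed.

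The same families were examined beyond the 10 genes. Their counts between SCI and Sham stand beside the 24.4% of all genes called higher and the 22.5% called lower. Among 8 other AP-1 genes 6 were called higher in SCI mice than in Sham mice, with a median log2 fold change of 1.40. Atf3, a stress-induced partner of JUN proteins and a marker of injured neurons, was at 3.50 (SE 0.230, edgeR adjusted p = 2.35e-06), and Batf, a leukocyte AP-1 factor, at 3.16. Jun, the partner of Fos, rose by 1.21, Fosl2 by 1.67, Batf2 by 1.59 and Batf3 by 1.17, while Jund (0.21) and Jdp2 (0.27) were not called. Of 7 other EGR and NR4A genes 3 were called higher and 1 lower. Egr2, which drives myelination in Schwann cells and is induced in macrophages, was at 2.03, and the EGR co-repressor Nab2 at 1.57. Nr4a3 was at 0.57, a call that held in 9 of 19 alternatives, and Egr4, a neuronal member of the family, was called lower at -1.58. Of 12 other IER genes and MAP kinase phosphatases 7 were called higher, among them the ERK phosphatase Dusp6 at 1.51 and Ier5 at 1.35, and Dusp8, an abundant phosphatase of brain, was called lower at -0.84.

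Among 31 other primary response genes 28 were called higher and none lower in the SCI group, with a median of 1.37. Socs3, a feedback inhibitor of cytokine receptors, was at 2.71, the macrophage and acute phase factor Cebpb at 2.58, and the matricellular gene Ccn1 at 2.496. Of 10 activity-regulated neuronal genes 1 was called higher and 5 lower, with a median of -0.64. The neuritin gene Nrn1 was at -1.92, the prohormone convertase Pcsk1 at -1.65 and Rgs4, a regulator of G protein signaling, at -1.28. Among 27 upstream kinases and factors 10 were called higher and 7 lower, beside 24.4% and 22.5% of all genes, with Elk3, a partner of serum response factor, at 2.10, the neuronal kinase Camk4 at -1.66 and the p38 target Mapkapk2 at 1.35. The summed markers of monocytes and macrophages moved the other way from those of neurons, from 132 to 249 CPM in Sham mice to 4969 to 6134 CPM in SCI mice and 3538 to 4791 CPM in SCI+FIPI mice. Their part in these values was not tested.

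**Figure D5:**
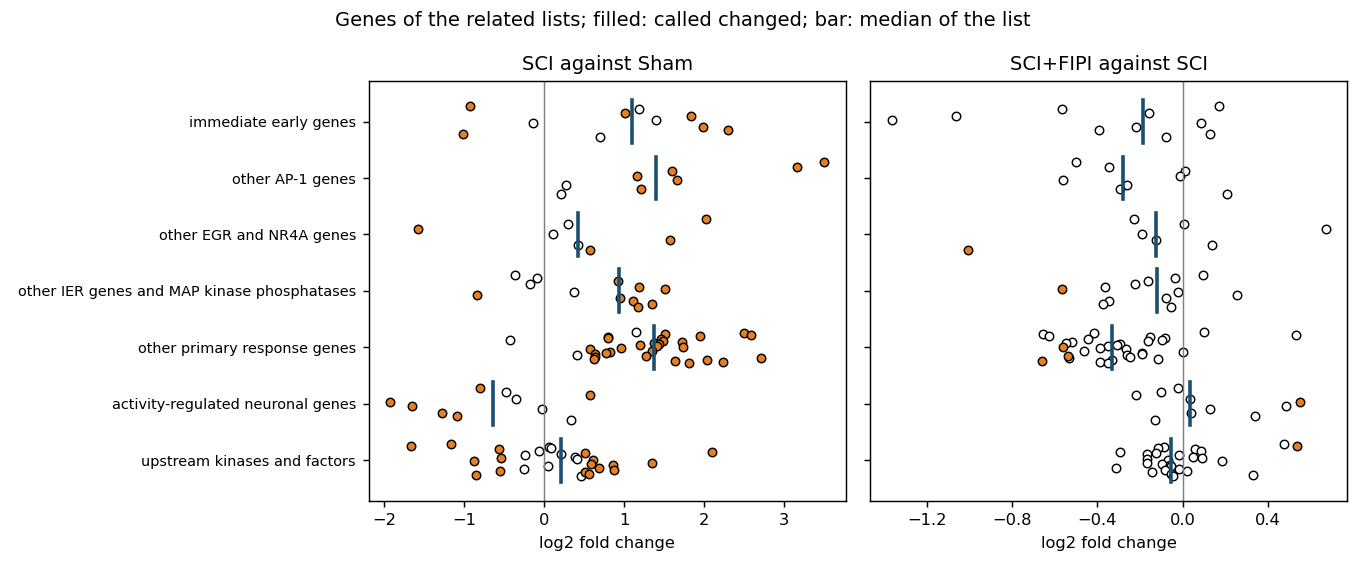
Log2 fold changes of the immediate early genes and of the genes of 6 related lists, for SCI against Sham (left) and SCI+FIPI against SCI (right). Each point is a gene, filled points were called changed, and the bars are medians, which were 1.09 and -0.19 for the immediate early genes and 1.37 and -0.33 for the other primary response genes.

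Between SCI+FIPI and SCI, 0.695% of all genes were called lower and 2.36% higher. In the lists, 0 of 8 other AP-1 genes, 1 of 7 EGR and NR4A genes, 1 of 12 IER genes and MAP kinase phosphatases and 3 of 31 other primary response genes were called lower, and none of these was called higher. Nr4a3, a paralog of Nr4a1, measured 7.13, 9.26 and 6.92 CPM in SCI mice and 3.26, 4.24 and 4.07 CPM in SCI+FIPI mice. The groups did not overlap, and Nr4a3 fell by 1.01 on the log2 scale (SE 0.239, edgeR adjusted p = 0.022). The call was lost without SCI mouse 2 or without any 1 of the 3 SCI+FIPI mice, with adjusted p up to 0.083. Dusp6 fell by 0.56 (adjusted p = 0.028) and Trib1, a pseudokinase, by 0.66 (adjusted p = 0.00507). Myc fell by 0.56 (adjusted p = 0.0384) and Sgk1, a glucocorticoid-regulated kinase, by 0.54 (adjusted p = 0.0298). Of these, Trib1 was called in all 9 fits with 1 mouse left out, Dusp6 in 5, Sgk1 in 4 and Myc in 3. The median of the 31 primary response genes was -0.33. The 3 of 31 called lower became 1 without SCI mouse 2 and 7 in the fit with offsets for GC content and length and the replicate block. Nrn1 (0.55, adjusted p = 0.00557) and Camk4 (0.54, adjusted p = 0.0104) were called higher in the SCI+FIPI group, Nrn1 in 8 and Camk4 in 7 of the 9 fits.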

How the data were processed

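The authors deposited raw counts of reads per gene for 9 mice, made from reads cleaned of low-quality and adapter sequence. The submitters' processing notes name GRCm38 and R 4.2.3, and the aligner, the counter, the annotation and the strand setting are not given in the sources used here. Symbols and positions came from GENCODE M21 (GRCm38), which held 52403 of 52550 identifiers. The model was fitted with edgeR 4.0.16 under R 4.3.3 (TMM factors, filterByExpr by group, robust quasi-likelihood fit with 1 mean per group over all 9 mice, Benjamini-Hochberg adjustment). The biological coefficient of variation was 9.30%. The limits of 0.5 and 0.05 follow the study's methods, which name no test. The SE is the log2 fold change divided by the square root of the F statistic, and 95% intervals use the t distribution of the fit. An exact permutation test of 3 mice against 3 cannot go below p = 0.1 and was not used.

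The 10 genes and all lists were chosen with earlier results of these data known. The rule let the text name the 10, any gene of the AP-1, EGR and NR4A and IER and phosphatase lists (not all are named), the 3 called genes with the largest change in each other list and comparison, and the 3 genes most like Fos and Arc. Ccdc85b and Prdx2 are named as neighbours of Fosl1 and Junb, and Tubb3 and Stmn2 after their values were seen. Alternatives were RLE and upper-quartile factors, 2 other filters (no filter, and at least 10 counts in every mouse), a fit to only the groups compared, DESeq2 1.42.0, limma-voom (limma 3.58.1), a replicate block, offsets for GC content and length (found for 99.9% of genes), both together, no limit on the fold change, and each mouse left out. The fits were tested on simulated data in which each gene had the spread typical of its level. This does not show how well changes are found in genes that vary more between mice.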

Additional observations from a re-analysis of the deposited data

How the results depend on the processing

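With SCI compared with Sham, 5 to 8 of the 10 genes were called over all alternatives, with SCI+FIPI compared with Sham 4 to 5, and with SCI+FIPI compared with SCI 0 except for 2 without SCI mouse 1, so that the fits leaving out 1 mouse ran from 0 to 2. The replicate number entered as a block gave 7, 0 and 5 called genes for SCI against Sham, SCI+FIPI against SCI and SCI+FIPI against Sham. Mice that share a number are different animals, their deviations from the group means correlated between -0.0726 and 0.108, and the numbers were not taken as pairs. Of the values for single genes, 532 kept their direction and their side of the limits, 13 passed the limits only under an alternative, 10 lost them (all for Egr1 in SCI against Sham) and 15 changed sign. With SCI+FIPI compared with SCI, the log2 fold change over the left-out fits ran from -0.54 to 0.054 for Egr1, from -0.036 to 0.24 for Npas4 and from -0.82 to 0.20 for Nr4a1. With SCI+FIPI compared with Sham it ran from -0.27 to 0.43 for Fosb, from -0.095 to 0.0090 for Fosl1 and from -0.12 to 0.90 for Nr4a1. For Fosb in that comparison it was also -0.0065 with upper-quartile factors, -0.17 with offsets for GC content and length and -0.17 with those offsets and the replicate block. The cause of these changes was not tested. Egr1 in SCI against Sham lost its call with upper-quartile factors, without a filter, with limma-voom and with the offsets, and Fosb gained one with DESeq2 (adjusted p = 0.0409) and with the block (adjusted p = 0.0202). Egr1 in SCI+FIPI against Sham gained one with DESeq2 (adjusted p = 0.0345) and with the block (0.80, adjusted p = 0.0222). Dusp1 gained one in SCI against Sham with DESeq2 (adjusted p = 0.0223) and in a fit to the groups compared (adjusted p = 0.0374). Groups of 3 mice leave wide intervals for the genes that vary between mice.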
